A study of Mus musculus with 2 samples.

Results

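Axon guidance ligands and receptors were described across the cell types of mouse cortex at postnatal day 5. The members were the genes whose symbols name semaphorins, plexins, neuropilins, ephrins, Eph receptors, Slits, Robos, netrins, netrin-Gs, Unc5 receptors or Dcc. The rule found 73 members among the 32285 genes of the count tables. Of these, Unc50, a Golgi membrane protein, and Unc5cl, a death-domain protein, entered by the spelling of their symbols alone, which leaves 71 members of the guidance families.

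Guidance cues steer growing axons, migrating neurons and sprouting vessels by attraction or repulsion. Secreted class 3 semaphorins bind neuropilins, which signal through plexins, whereas most transmembrane semaphorins bind plexins directly. Ephrins and Eph receptors signal in both directions at cell contacts, Slits repel through Robo receptors, and netrins act through Dcc and Unc5 receptors. In developing brain the same families also act in glia and in blood vessels.

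Droplet single-cell RNA sequencing was available for 1 library of Katnal2 mutant cortex (Mut) and 1 library of wild-type cortex (WT), both at postnatal day 5. Per the labels, tissue was stored at -80 °C, dissociated with trypsin and collagenase, sorted by flow cytometry and loaded on the 10x Genomics Chromium. The allele, its zygosity, the strain, the sex, the sorting gate and the number of animals behind a library are not given in the sources used here. Katnal2 belongs to the katanin family of microtubule-severing enzymes, and the study's title ties its mutation to hydrocephalus and to ependymal cells. Katnal2 had 378 UMIs (unique molecular identifiers, counts of RNA molecules) in the Mut library, or 4.94 per 1000000 UMIs (CPM), and 290 UMIs or 4.03 CPM in the WT library; since the mutated part of the gene is unknown, this does not check the labels. With 1 library per genotype no test was possible, and a difference between the libraries cannot be told apart from one between animals, dissections or preparations. The libraries also differed in sex: barcodes with Xist and no Y-linked UMI, called female here, numbered 4884 in Mut and 3488 in WT, and barcodes with Y-linked UMIs and no Xist, called male, 2598 in Mut and 3916 in WT.

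Per the design text each sample stood for 3 replicates, but the barcodes of a library carry no mark of them. After filtering, 9286 barcodes of the Mut library and 10052 of the WT library were kept, with medians of 7322 (Mut) and 6210.5 (WT) UMIs, and 32 barcode sequences occurred in both. Marker genes that hold no guidance gene placed 94.4% (Mut) and 92.3% (WT) of them in a cell type, and 12 types had at least 30 barcodes in both libraries. Astrocytes were the most frequent at 4275 barcodes in Mut and 4393 in WT, followed by oligodendrocyte precursors at 1708 in Mut and 1857 in WT. GABAergic neurons numbered 1012 in Mut and 1464 in WT. Excitatory neurons, the main cell class of cortex, came to 38 (Mut) and 35 (WT) barcodes, or 0.409% (Mut) and 0.348% (WT) of those kept, Cajal-Retzius cells to 40 (Mut) and 44 (WT), and differentiating oligodendrocytes to 88 (Mut) and 106 (WT), so levels in these types rest on few cells; Eomes, a gene of intermediate progenitors, was among the leading genes of the excitatory barcodes. The other types, by barcodes, were endothelial cells with 354 in Mut and 255 in WT, mural cells with 271 in Mut and 250 in WT, microglia with 326 in Mut and 422 in WT, and neural progenitors with 265 in Mut and 295 in WT. Border-associated macrophages had 231 in Mut and 93 in WT, and fibroblasts 132 in Mut and 48 in WT, so WT fibroblast levels rest on few cells too. Ependymal cells, 20 in Mut and 15 in WT, were kept aside. Border-associated macrophages also carried Ccl7, Cxcl2 and Ccl2, chemokine genes of activated macrophages, among their 10 leading genes. Microglia likewise carried the chemokine genes Ccl4 and Ccl3 among theirs. Intervals are 95% intervals for counting error only.

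Promoters of 3 members are shown because each of these genes was high in a single cell type or vessel segment: Robo4 and Sema3g in endothelium and Plxnb3 in differentiating oligodendrocytes. RefSeq windows on GRCm38.p6 that start 250 bases before the annotated start were matched for 63 of the 73 members. The windows below are on the forward strand and end before the earliest exon of GENCODE M21, so that they hold no base annotated as transcribed. Robo4 is at chr9:37401722-37401896, Sema3g at chr14:31217623-31217859 and Plxnb3 at chrX:73756853-73757089. Capitals mark, on either strand, AGGAAG in the endothelial members, a core bound by ETS factors, and ACAAAG or ACAATG in Plxnb3, cores bound by Sox factors. Each core was searched and marked only in the members named for it. The Plxnb3 window also holds AGGAAG on the reverse strand, which is left unmarked.
Robo4: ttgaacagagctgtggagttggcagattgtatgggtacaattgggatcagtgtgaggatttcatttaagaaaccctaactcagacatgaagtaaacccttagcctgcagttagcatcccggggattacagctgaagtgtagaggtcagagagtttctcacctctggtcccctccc
Sema3g: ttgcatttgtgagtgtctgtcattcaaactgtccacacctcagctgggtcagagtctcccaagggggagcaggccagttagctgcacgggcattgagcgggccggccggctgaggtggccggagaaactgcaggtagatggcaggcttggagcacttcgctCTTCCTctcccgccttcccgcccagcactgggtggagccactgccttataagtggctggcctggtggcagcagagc
Plxnb3: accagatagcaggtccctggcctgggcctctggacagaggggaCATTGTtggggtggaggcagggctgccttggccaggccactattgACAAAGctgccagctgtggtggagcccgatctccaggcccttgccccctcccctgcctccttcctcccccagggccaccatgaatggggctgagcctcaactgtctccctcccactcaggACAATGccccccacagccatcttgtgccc
The Robo4 window of 175 bases held no AGGAAG, and 21% of all 32851 RefSeq windows of that length held it. The Sema3g window of 237 bases held 1 match, on the reverse strand, where 28% of all windows held it. The Plxnb3 window held 3 matches, starting 194, 149 and 29 bases before its end, and 24.4% of all windows of its 237 bases held at least 1 of these cores. These matches are letters in a window and are not evidence of binding.

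Of the 73 members, 56 reached 20 CPM in at least 1 of the 12 cell types in both libraries, where 33.9% of all genes did. The other 17 did not. The cell type with the highest level was the same in Mut and WT for 51 of the 56. For 27 of them the interval of the highest type lay above that of the next type in both libraries. Most members were shared by several types: 13 reached 20 CPM in 1 type alone and 10 in 6 types or more. Plxnb2, a plexin for class 4 semaphorins, reached it in 10 types, and Unc50 in all 12. The summed level of all members was highest in excitatory neurons, at 3963 CPM in Mut and 3455 CPM in WT, and lowest in microglia, at 640 (Mut) and 624 (WT) CPM.

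**Figure D1:**
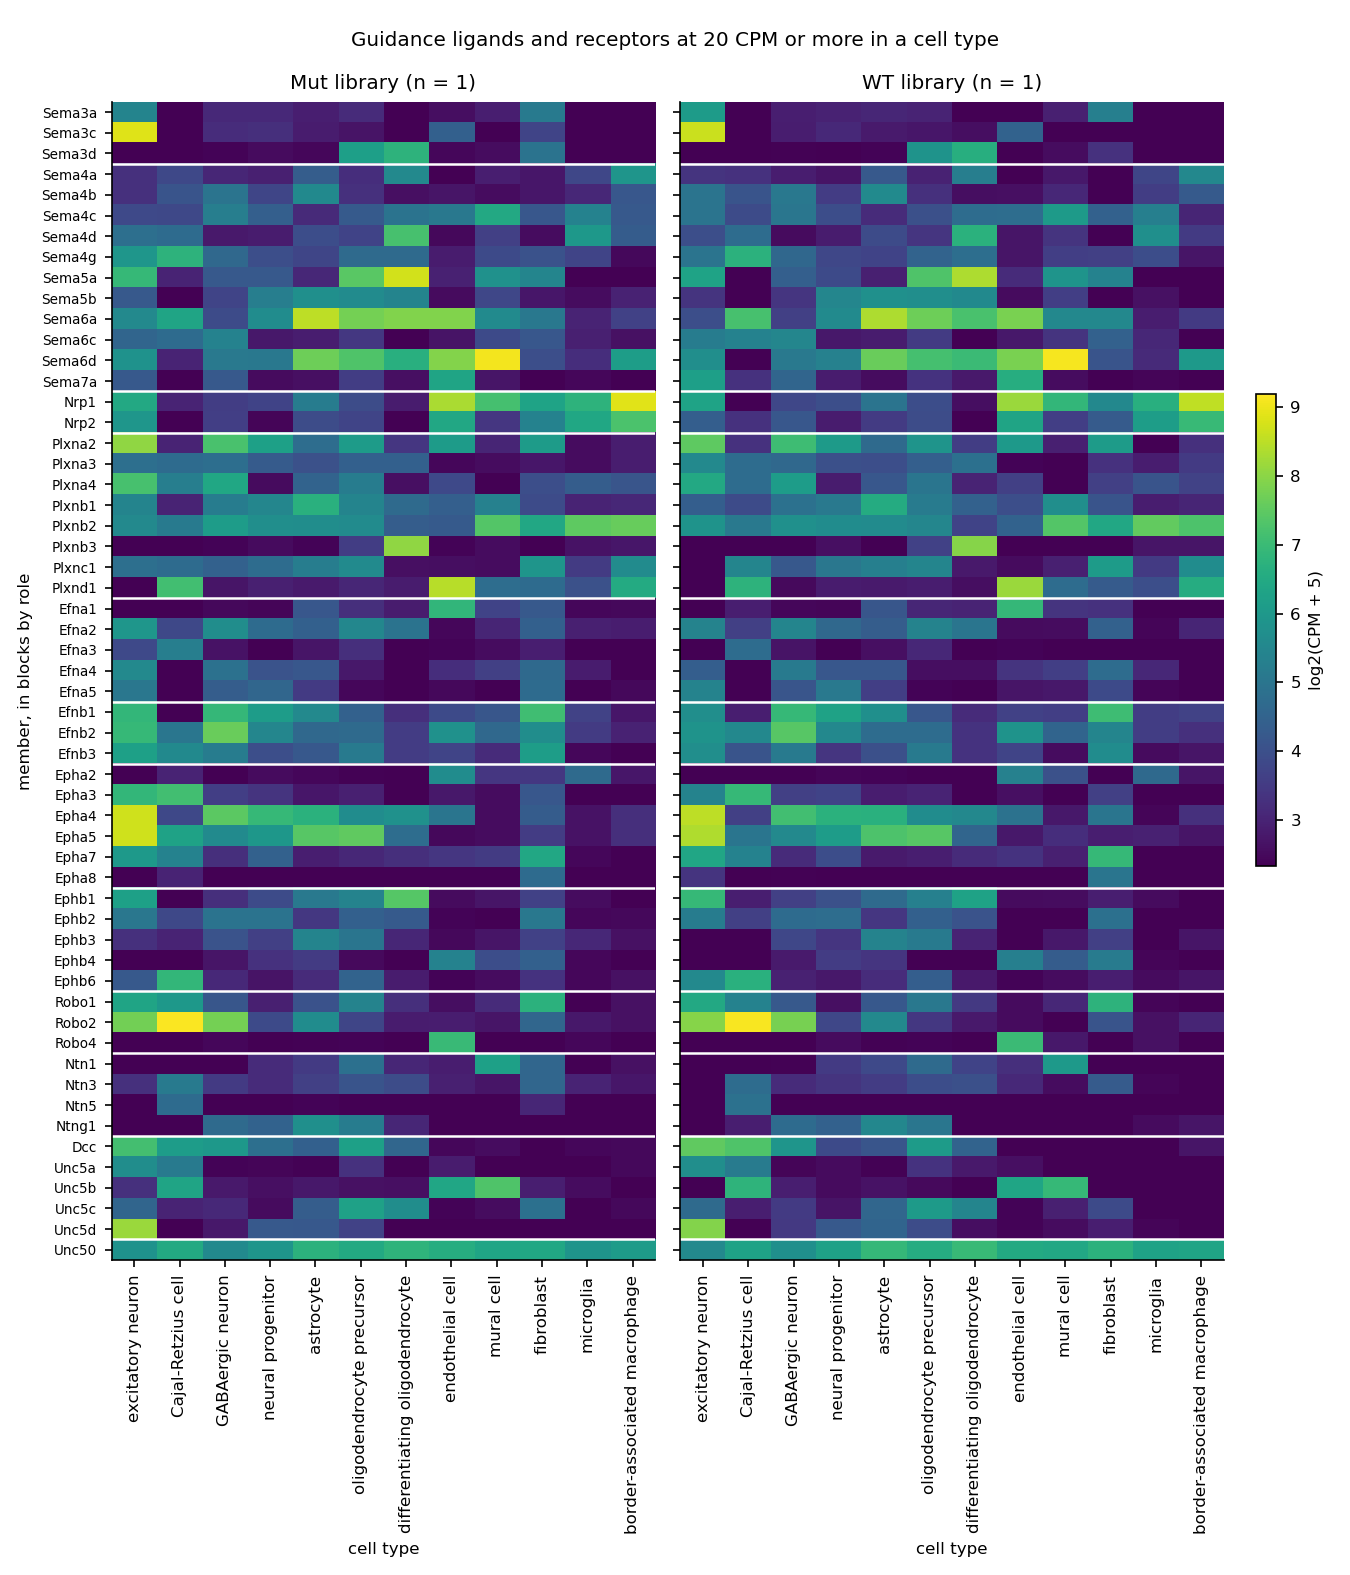
Levels of the 56 members that reached 20 CPM in a cell type, as log2(CPM + 5), with members in rows in blocks by role and cell types in columns, for the Mut library on the left and the WT library on the right. Blocks of high level recur in the same columns in both panels, such as Sema3c in excitatory neurons, Robo2 in Cajal-Retzius cells, Plxnb3 in differentiating oligodendrocytes and Robo4 in endothelial cells.

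Among the secreted class 3 semaphorins, 3 of 7 members reached the level. Sema3c, a ligand for neuropilins and plexin D1, had 461 CPM in Mut excitatory neurons (374 to 562) and 397 CPM in WT ones (312 to 497). The next type was endothelium at 16.7 (Mut) and 17.6 (WT) CPM, and Sema3c was among the 10 leading genes of the excitatory barcodes. Sema3d, a repellent for axons and endothelial cells, stood in oligodendrocyte lineage, with 103 (Mut) and 94.3 (WT) CPM in differentiating cells and 68.2 (Mut) and 53.1 (WT) CPM in precursors. Sema3a, the classical growth cone collapsing factor, had 37.6 CPM in Mut and 63.5 in WT excitatory neurons and 29.8 (Mut) and 34.0 (WT) CPM in fibroblasts. Sema3g, an endothelial ligand of neuropilin 2, stayed below 20 CPM over endothelium as a whole, at 17.5 (Mut) and 16.8 (WT) CPM, and was at 0.805 (Mut) and 0 (WT) CPM in mural cells. Sema3e, a ligand of plexin D1, had 0 CPM in Mut and 31.7 CPM in WT excitatory neurons, and Sema3b and Sema3f stayed below 20 CPM in every type. Excitatory neurons, at 38 (Mut) and 35 (WT) barcodes, were outside the comparison of genotypes.

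The transmembrane and membrane-anchored semaphorins of classes 4 to 7 had 11 of 13 members at the level. Sema5a, a bifunctional cue bound by plexins, had 417 CPM in Mut and 323 in WT differentiating oligodendrocytes and 170 (Mut) and 153 (WT) CPM in precursors. Sema6d, a ligand of plexin A1, was highest in mural cells at 532 (Mut) and 543 (WT) CPM, with 239 (Mut) and 222 (WT) CPM in endothelium and 200 (Mut) and 194 (WT) CPM in astrocytes. Sema6a, which binds plexins A2 and A4, was led by astrocytes with 359 (Mut) and 322 (WT) CPM and was above 140 CPM in both libraries in precursors, differentiating oligodendrocytes and endothelium as well. These 3 ligands were each at the level in glia and in the vessel wall. Sema4d, the ligand of B plexins, had 142 (Mut) and 100 (WT) CPM in differentiating oligodendrocytes and 58.3 (Mut) and 49.2 (WT) CPM in microglia. Sema7a, a GPI-anchored semaphorin, had 75.8 (Mut) and 91.6 (WT) CPM in endothelium, and 14.1 (Mut) and 68.8 (WT) CPM in the few excitatory barcodes. Sema4g stood out in Cajal-Retzius cells at 104 (Mut) and 102 (WT) CPM, Sema4c in mural cells at 83.7 (Mut) and 62.4 (WT) CPM, and Sema4a had 55.1 (Mut) and 41.0 (WT) CPM in border-associated macrophages and 42.3 (Mut) and 33.8 (WT) CPM in differentiating oligodendrocytes. Sema4b and Sema5b were led by astrocytes and Sema6c by GABAergic neurons, each below 50 CPM. Sema6b narrowly missed the level, with 18.3 CPM in Mut and 21.9 CPM in WT Cajal-Retzius cells, as did Sema4f, at 18.3 (Mut) and 17.0 (WT) CPM in the same cells.

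Both neuropilins, the ligand-binding co-receptors for class 3 semaphorins and for vascular endothelial growth factor, were highest in macrophages of the brain borders. Nrp1 had 470 CPM in Mut (439 to 504) and 370 in WT border-associated macrophages (324 to 421), and 315 (Mut) and 284 (WT) CPM in endothelium. Mural cells followed at 140 (Mut) and 112 (WT) CPM and microglia at 104 (Mut) and 96.4 (WT) CPM. Nrp2 had 148 (Mut) and 120 (WT) CPM in border-associated macrophages, 82.1 (Mut) and 75.4 (WT) CPM in endothelium and 80.9 (Mut) and 65.7 (WT) CPM in microglia. Unlike Nrp1, it was not at the level in mural cells. With estimated free RNA subtracted, the log2 ratio of border-associated macrophages to endothelium was -0.17 for Nrp1, so that endothelium led.

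Plexins, the signalling receptors for semaphorins, reached the level in 8 of 9 cases, with different leading types. Plxnb3, a receptor for semaphorin 5A, stood in a single type, with 261 CPM in Mut (229 to 297) and 240 CPM in WT differentiating oligodendrocytes (211 to 273), against 6.96 (Mut) and 7.65 (WT) CPM in precursors and under 2 CPM in each of the other 10 types. Plxnd1, a vascular plexin, had 350 CPM in Mut and 284 CPM in WT endothelium, 134 (Mut) and 105 (WT) CPM in Cajal-Retzius cells and 86.6 (Mut) and 89.8 (WT) CPM in border-associated macrophages. Plxna4 and Plxna2, neuronal receptors for semaphorins of classes 3 and 6, were led by excitatory neurons, at 141 (Mut) and 84.7 (WT) CPM and at 263 (Mut) and 175 (WT) CPM. GABAergic neurons came next, with 81.1 (Mut) and 64.7 (WT) CPM of Plxna4 and 146 (Mut) and 128 (WT) CPM of Plxna2. The B plexins divided the types: Plxnb1 was led by astrocytes with 98.0 (Mut) and 88.5 (WT) CPM, and Plxnb2 by the macrophage types, with 175 (Mut) and 182 (WT) CPM in microglia and 190 (Mut) and 151 (WT) CPM in border-associated macrophages. Plxnc1, the receptor of Sema7a, had 54.7 (Mut) and 63.1 (WT) CPM in fibroblasts and 1 CPM or less in endothelium, where Sema7a was highest. Plxna3 was led by excitatory neurons at 23.5 (Mut) and 42.3 (WT) CPM, and Plxna1 missed the level.

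Every ephrin reached the level in some type. Efna1, an ephrin induced in endothelium by inflammatory signals, had 109 CPM in Mut and 116 CPM in WT endothelium and at most 14.1 CPM elsewhere. Efna5, a repulsive cue of topographic maps, had 28.2 (Mut) and 37.0 (WT) CPM in excitatory neurons and 19.2 (Mut) and 29.1 (WT) CPM in neural progenitors. Efna3 was led by Cajal-Retzius cells with 33.6 (Mut) and 21.9 (WT) CPM, and Efna4 by GABAergic neurons with 24.5 (Mut) and 30.9 (WT) CPM, although Mut excitatory neurons had 42.3 CPM. Efna2 had 56.4 (Mut) and 37.0 (WT) CPM in excitatory neurons, 46.9 (Mut) and 38.8 (WT) CPM in GABAergic neurons and 40.8 (Mut) and 37.2 (WT) CPM in precursors. Of the transmembrane ephrins, Efnb2, which marks arteries and also neurons, had 194 CPM in Mut (182 to 207) and 165 CPM in WT GABAergic neurons (155 to 175), and 51.2 (Mut) and 53.0 (WT) CPM in endothelium. Efnb1 had nearly level values in fibroblasts, 132 (Mut) and 129 (WT) CPM, and GABAergic neurons, 115 (Mut) and 116 (WT) CPM. Efnb3, a midline repellent, had 70.5 (Mut) and 47.6 (WT) CPM in excitatory neurons and 65.5 (Mut) and 46.1 (WT) CPM in fibroblasts, values whose intervals overlap.

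Of the Eph receptors 6 of 9 EphA and 5 of 5 EphB members reached the level. Epha4, which binds ephrins of both classes, had 414 (Mut) and 360 (WT) CPM in excitatory neurons, 171 (Mut) and 134 (WT) CPM in GABAergic neurons and 118 (Mut) and 101 (WT) CPM in neural progenitors. Epha5 had 414 (Mut) and 328 (WT) CPM in excitatory neurons, and unlike Epha4 its next types were glial, with 180 (Mut) and 165 (WT) CPM in precursors and 167 (Mut) and 149 (WT) CPM in astrocytes. Epha3 stood in Cajal-Retzius cells at 134 (Mut) and 117 (WT) CPM and in excitatory neurons at 113 CPM in Mut and 37.0 CPM in WT. Epha7 and Epha8 were led by fibroblasts, at 82.9 (Mut) and 116 (WT) CPM and at 21.5 (Mut) and 26.7 (WT) CPM. Epha2, the main receptor for ephrin-A1, had 46.2 (Mut) and 35.4 (WT) CPM in endothelium, the type that led its ligand, and 20.9 (Mut) and 20.4 (WT) CPM in microglia. The other 3 EphA members, Epha1, Epha6 and Epha10, had at most 3.06 CPM in any type. Every EphB receptor reached the level. Ephb6, which lacks kinase activity, had 113 (Mut) and 97.3 (WT) CPM in Cajal-Retzius cells, and Ephb3 had 38.0 (Mut) and 37.2 (WT) CPM in astrocytes. Ephb4, the venous receptor of ephrin-B2, had 36.2 (Mut) and 34.1 (WT) CPM in endothelium and 16.6 (Mut) and 31.5 (WT) CPM in fibroblasts. Ephb1 was highest in differentiating oligodendrocytes of the Mut library, at 162 CPM, but in excitatory neurons of the WT library, at 116 CPM. Ephb2 had 28.2 (Mut) and 31.7 (WT) CPM in excitatory neurons and 29.0 (Mut) and 24.3 (WT) CPM in fibroblasts, so its leading type changed between the libraries too. It also had 25.9 (Mut) and 22.5 (WT) CPM in neural progenitors and 25.5 (Mut) and 21.7 (WT) CPM in GABAergic neurons.

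Of the Robo receptors 3 of 4 reached the level, and of their ligands none did. Among the 12 types with at least 30 barcodes, none of the 3 Slits reached 20 CPM in a type in both libraries: Slit2 came nearest, in precursors, with 25.6 CPM in Mut (22.7 to 28.8) and 19.3 CPM in WT (16.8 to 22.1). In fibroblasts Slit2 had 43.1 CPM in Mut and 4.85 CPM in WT, where all 3 Slits together had 2 UMIs from 48 barcodes. Fibroblasts were outside the comparison of genotypes. Markers of arterial endothelium, among them Mgp, summed to 2197 (Mut) and 245 (WT) CPM in the fibroblast barcodes, and mural markers to 2877 (Mut) and 4383 (WT) CPM. The part of these lists in the Slit2 values was not tested. Slit1 had 11.3 (Mut) and 10.9 (WT) CPM in GABAergic neurons, and Slit3 had 16.6 (Mut) and 0 (WT) CPM in fibroblasts. In the ependymal barcodes, too few for that count, Slit2 was above 20 CPM in both libraries, at 44.4 (Mut) and 48.1 (WT) CPM, on 11 (Mut) and 7 (WT) UMIs. Robo2, a neuronal Slit receptor, had 571 CPM in Mut (492 to 659) and 557 CPM in WT Cajal-Retzius cells (487 to 634), 207 (Mut) and 243 (WT) CPM in excitatory neurons and 210 (Mut) and 215 (WT) CPM in GABAergic neurons. Robo1 had 103 (Mut) and 104 (WT) CPM in fibroblasts and 75.2 (Mut) and 84.7 (WT) CPM in excitatory neurons. Robo4, the endothelial Robo, had 121 CPM in Mut (111 to 131) and 124 CPM in WT endothelium (113 to 136) and under 2 CPM in each of the other 11 types. Robo3, a commissural receptor, had at most 0.788 CPM in any type.

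Netrin 1, the founding attractant for commissural axons, was highest in mural cells of the vessel wall. Ntn1 had 70.8 CPM in Mut (56.8 to 87.2) and 61.5 CPM in WT mural cells (47.9 to 77.7), 24.2 (Mut) and 20.9 (WT) CPM in precursors, at most 0.158 CPM in GABAergic neurons, and 0 CPM in excitatory neurons and Cajal-Retzius cells. Its receptor Dcc had 136 (Mut) and 180 (WT) CPM in excitatory neurons, 64.2 (Mut) and 153 (WT) CPM in Cajal-Retzius cells, 69.9 (Mut) and 63.4 (WT) CPM in precursors and 58.8 (Mut) and 55.2 (WT) CPM in GABAergic neurons. The repulsive Unc5 receptors were led by 3 different types. Unc5d had 282 (Mut) and 238 (WT) CPM in excitatory neurons and at most 18.3 CPM elsewhere. Unc5c was the one member among the 56 at the level that was led by oligodendrocyte precursors, at 70.9 CPM in Mut (65.9 to 76.1) and 62.6 CPM in WT (58.0 to 67.5). Unc5b, a receptor of tip and arterial endothelium, had 154 (Mut) and 116 (WT) CPM in mural cells, 76.4 (Mut) and 107 (WT) CPM in Cajal-Retzius cells and 79.5 (Mut) and 78.0 (WT) CPM in endothelium. Unc5a had 47.0 (Mut) and 47.6 (WT) CPM in excitatory neurons and 30.6 (Mut) and 31.6 (WT) CPM in Cajal-Retzius cells. Ntn3 and Ntn5 were led by Cajal-Retzius cells, at 30.6 (Mut) and 21.9 (WT) CPM and at 21.4 (Mut) and 24.3 (WT) CPM, and Ntng1, a membrane-anchored netrin-G, by astrocytes at 48.6 (Mut) and 40.7 (WT) CPM. Ntn4 and Ntng2 missed the level in every type.

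Several types stood apart by the number of members that were at least 4-fold above the median of the other types in both libraries, on log2(CPM + 5). Excitatory neurons had 17 of the 68 members measured, where 3.34% of all genes met this. Endothelium had 12, among them Robo4, Plxnd1, Efna1, Epha2 and Sema7a, where 4.39% of all genes did. Cajal-Retzius cells had 11, beside 4.64% of all genes, and GABAergic neurons 8, beside 2.25%. Differentiating oligodendrocytes and precursors had 7 each, beside 2.91% and 4.02% of all genes, and shared Unc5c, Sema3d, Ephb1 and Sema5a. Astrocytes had 6 (3.4% of all genes), fibroblasts 5 (3.7%), border-associated macrophages 4 (4.68%), microglia 3 (3.88%), mural cells 3 (3.9%) and neural progenitors 1, Efna5 (1.83%).

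Within the oligodendrocyte lineage, a few members were higher in differentiating cells and many were lower than in precursors. Of 56 members measured, 6 were past 1.5-fold higher in differentiating cells in both libraries, where 6.87% of all genes were, and 28 were past 1.5-fold lower, where 24.5% of all genes were. Among the lower, the interval of the ratio held 1 in both libraries for Epha3, Sema3a and Sema4b, each below 5 CPM in both types. It held 1 in Mut alone for Plxna1 and in WT alone for Efna3 and Robo2. Plxnb3 was 37.5-fold higher in Mut (28.8 to 49.4) and 31.4-fold higher in WT (24.4 to 40.7). Sema4d had 142 CPM in differentiating cells and 8.09 CPM in precursors in Mut, and 100 (differentiating) and 5.47 (precursor) CPM in WT. Sema4a went the same way, at 42.3 (differentiating) and 4.33 (precursor) CPM in Mut and 33.8 (differentiating) and 2.92 (precursor) CPM in WT. The others were Ephb1, Sema5a and Sema4c, with ratios of 1.78 or more in each library. In the other direction, Epha5 had 22.2 CPM in differentiating cells and 180 CPM in precursors of the Mut library, and 18.9 (differentiating) and 165 (precursor) CPM in WT. Plxna2, Plxnc1, Plxna4, Robo1 and Dcc were lower in differentiating cells as well, Dcc with a ratio of 0.270 in Mut and 0.282 in WT. Sema6a was near level in Mut, with 232 CPM in differentiating cells and 210 CPM in precursors, and lower in WT, with 146 (differentiating) and 202 (precursor) CPM.

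**Figure D2:**
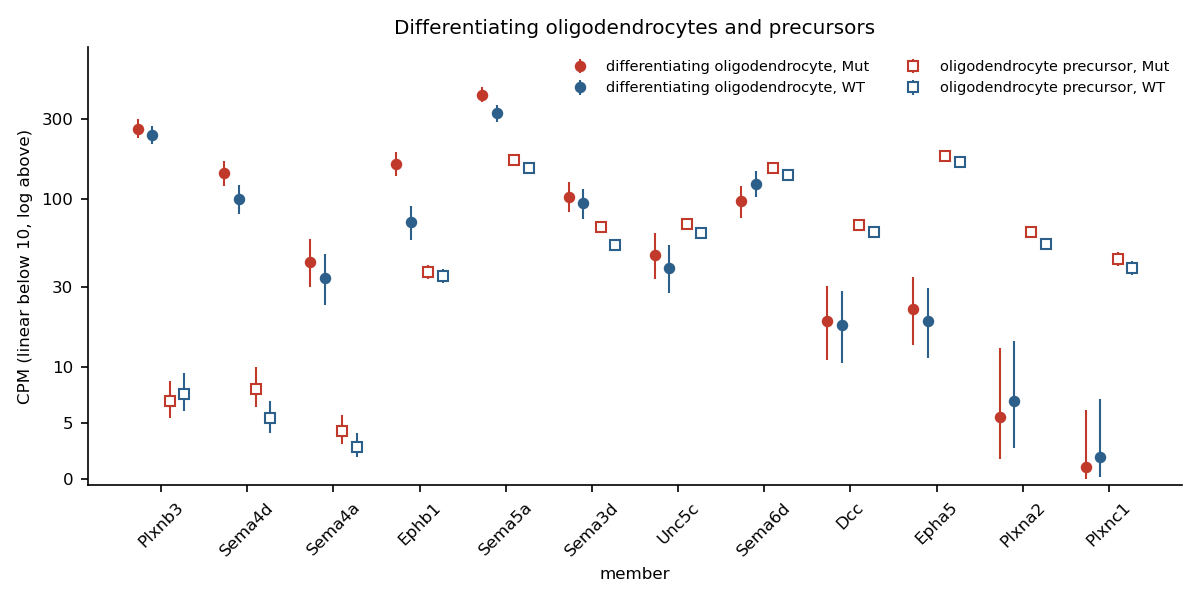
Levels in CPM of 12 members in differentiating oligodendrocytes (filled circles) and precursors (open squares) of the Mut and WT libraries, on an axis that is linear below 10 and logarithmic above, with 95% counting intervals. Plxnb3, Sema4d, Sema4a, Ephb1 and Sema5a lie higher in differentiating cells in both libraries, and Dcc, Epha5, Plxna2 and Plxnc1 lie higher in precursors.

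Ephb1 also differed between the libraries in differentiating oligodendrocytes, with 162 CPM in Mut and 72.5 CPM in WT, a ratio of 2.24 (1.68 to 3.01). This type was outside the comparison of genotypes because the Mut library had only 88 such barcodes. Its summed markers of mature oligodendrocytes were 17489 CPM in Mut and 12821 CPM in WT, and their part in this value was not tested.

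Endothelial barcodes were split by arterial and by venous markers, which gave 25 arterial barcodes in Mut and 22 in WT, and 223 with venous markers in Mut and 144 in WT. Sema3g, Unc5b and Efnb2, a cue, a receptor and an ephrin linked to arteries, were each over 7-fold higher in the arterial barcodes in both libraries. Sema3g had 153 CPM in arterial and 7.47 CPM in venous barcodes of the Mut library, and 82.5 (arterial) and 9.29 (venous) CPM in WT. Unc5b had 464 (arterial) and 43.8 (venous) CPM in Mut, a ratio of 10.6 (8.39 to 13.3), and 369 (arterial) and 43.6 (venous) CPM in WT, a ratio of 8.46 (6.27 to 11.4). Efnb2 had 234 (arterial) and 31.9 (venous) CPM in Mut and 277 (arterial) and 29.7 (venous) CPM in WT. In all, 7 of 28 members measured were past 1.5-fold higher in arterial barcodes in both libraries, where 6.24% of all genes were, and 9 were past it lower, where 9.23% were. The other arterial members were Sema3c, at 66.3 (arterial) and 8.21 (venous) CPM in Mut and 43.7 (arterial) and 9.65 (venous) CPM in WT, and Plxna4, Efna4 and Efnb1, each on 3 to 7 arterial UMIs per library. The interval of the ratio held 1 in both libraries for Efnb1, and in WT alone for Plxna4 and Efna4. Plxnd1 led the members that were lower in arterial barcodes, with 157 (arterial) and 369 (venous) CPM in Mut and 121 (arterial) and 305 (venous) CPM in WT. Nrp1, Nrp2, Sema6a and Sema6d were lower too, with intervals of the ratio below 1 in both libraries. Plxna2, Plxnb2, Sema6b and Efnb3 were also lower, but their intervals held 1 in both libraries. Robo4 had 94.2 (arterial) and 118 (venous) CPM in Mut and 67.9 (arterial) and 123 (venous) CPM in WT, and its 2 ratios did not both pass 1.5-fold. Ephb4, the partner of Efnb2, had 34.9 CPM in arterial and 36.8 CPM in venous barcodes of Mut, and 67.9 (arterial) and 33.6 (venous) CPM in WT, on 10 (Mut) and 14 (WT) arterial UMIs. With barcodes thinned to 1000 UMIs its log2 ratio, as the mean of both libraries, was -1.68, lower in arterial barcodes. Thinning left 1000 UMIs in each of the 25 (Mut) and 22 (WT) arterial barcodes. The thinned value therefore rests on very few Ephb4 UMIs and does not decide its direction. The barcodes with venous markers made up 223 of 354 endothelial barcodes in Mut and 144 of 255 in WT. No capillary markers were used, and the venous marker Slc38a5 was among the 10 leading genes of endothelium as a whole. The barcodes with venous markers were therefore not shown to be venous alone. Haemoglobin and other erythroid markers summed to 34556 CPM in arterial and 5557 CPM in venous barcodes of Mut, and to 6794 (arterial) and 4146 (venous) CPM in WT; their part in the ratios was not tested. General neuronal markers summed to 178 (arterial) and 34.6 (venous) CPM in Mut and to 723 (arterial) and 24.7 (venous) CPM in WT. In arterial barcodes 4 (Mut) and 7 (WT) of the 8 markers were at 0. Stmn2 is on both this list and the arterial list, so the split itself can raise the arterial sum. The part of these markers was not tested either. Mural markers summed to 195 (arterial) and 919 (venous) CPM in Mut and to 607 (arterial) and 1194 (venous) CPM in WT, and markers of dividing cells to 171 (arterial) and 847 (venous) CPM in Mut and to 34.0 (arterial) and 569 (venous) CPM in WT. Sema6d, among the members lower in arterial barcodes, was highest in mural cells, and the part of these lists was not tested. Without doublet removal 4 members were higher in arterial barcodes in both libraries, with barcodes thinned to 1000 UMIs 2 were, and with at least 100 UMIs per gene 4 were. The thinned count rests on the few UMIs left in the arterial barcodes.

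**Figure D3:**
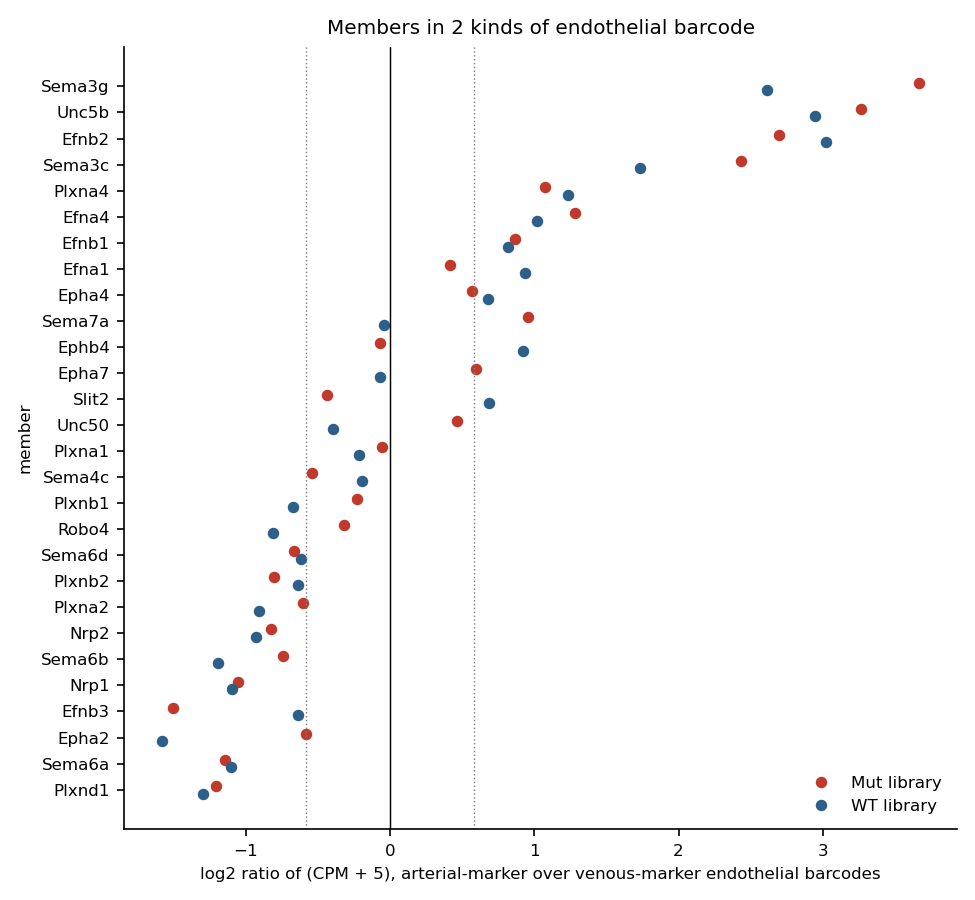
Log2 ratio of (CPM + 5), arterial-marker over venous-marker endothelial barcodes, for the 28 members measured, with 1 point per library and dotted lines at 1.5-fold. Sema3g, Unc5b, Efnb2 and Sema3c lie far to the right in both libraries and Plxnd1, Sema6a and Nrp1 to the left.

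GABAergic neurons were split by transcription factor and peptide markers into a striatal type, with 72 barcodes in Mut and 146 in WT, and an Sp8 neuroblast type, with 327 in Mut and 452 in WT. Of the 9 striatal markers, 4 in Mut and 1 in WT were at 0 in the striatal-type barcodes. A medial ganglionic eminence type, named for the source of Lhx6 interneurons, had 16 barcodes in Mut and 14 in WT and was not compared. Of 45 members measured, 7 were past 1.5-fold higher in the striatal type in both libraries, where 4.01% of all genes were, and 6 were past it lower, where 2.66% were. Markers of dividing cells summed to 2840 (striatal) and 1549 (Sp8) CPM in Mut and to 2136 (striatal) and 1104 (Sp8) CPM in WT. General neuronal markers summed to 4769 (striatal) and 7702 (Sp8) CPM in Mut and to 5608 (striatal) and 7647 (Sp8) CPM in WT; the part of both lists was not tested. The Robos parted: Robo1 had 52.0 CPM in striatal and 11.2 CPM in Sp8-type barcodes of Mut, and 47.2 (striatal) and 8.16 (Sp8) CPM in WT, whereas Robo2 had 76.6 (striatal) and 329 (Sp8) CPM in Mut and 131 (striatal) and 355 (Sp8) CPM in WT. Dcc went with Robo1, at 126 (striatal) and 29.1 (Sp8) CPM in Mut and 76.9 (striatal) and 25.1 (Sp8) CPM in WT. Epha4, Efna5, Nrp1, Plxnc1 and Ephb2 were the other members higher in the striatal type. Plxna4 went with Robo2, at 54.7 (striatal) and 166 (Sp8) CPM in Mut and 47.2 (striatal) and 121 (Sp8) CPM in WT. Ntng1, Sema7a, Slit1 and Unc5c were also lower in the striatal type, Unc5c at 0 (striatal) and 7.47 (Sp8) CPM in Mut and 3.50 (striatal) and 13.8 (Sp8) CPM in WT. The interval of the ratio held 1 in both libraries for Sema7a, Slit1 and Unc5c, and for Ephb2 among the members higher in the striatal type. It held 1 in Mut alone for Ntng1, Efna5 and Nrp1, and in WT alone for Plxnc1.

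**Figure D4:**
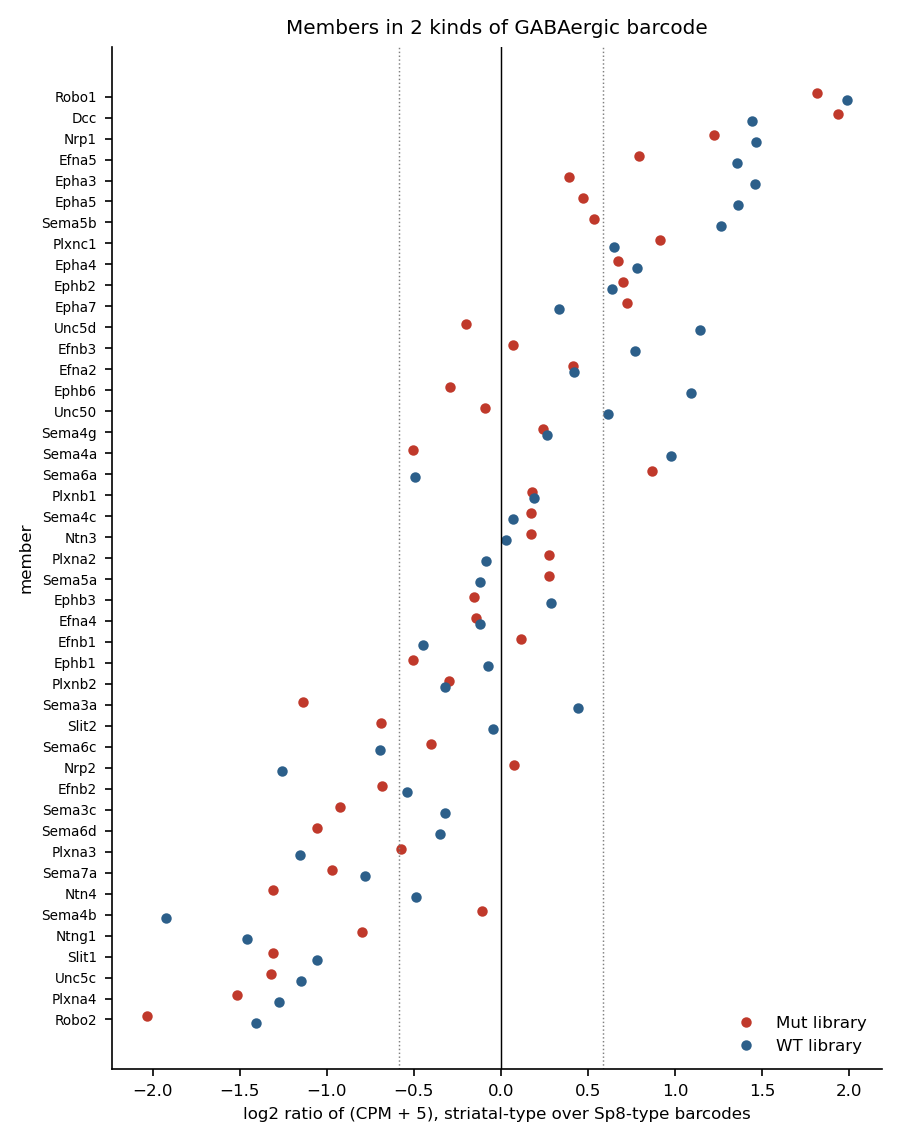
Log2 ratio of (CPM + 5), striatal-type over Sp8-type GABAergic barcodes, for the 45 members measured, with 1 point per library and dotted lines at 1.5-fold. Robo1 and Dcc lie at the striatal end and Robo2 and Plxna4 at the Sp8 end in both libraries.

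Between the genotypes, few guidance genes were past 1.5-fold. In the 7 cell types with at least 100 barcodes in both libraries, 248 pairs of member and cell type had at least 30 UMIs, which covers 64 different members. Of these pairs 4 were past 1.5-fold on log2(CPM + 5), or 1.61%, where 1.86% of all 75155 gene and cell type pairs were. The median log2 ratio of Mut to WT over the pairs was 0.08. In GABAergic neurons 0 of 45 members were past the fold higher in Mut and 2 were past it lower, where 0.507% and 0.29% of all genes were. In neural progenitors 1 of 36 was higher and 0 were lower, beside 1.65% and 0.807% of all genes. In mural cells 0 of 14 were higher and 1 was lower, beside 4.32% and 1.78%. No member passed in either direction among 55 in astrocytes (0.154% of all genes higher and 0.133% lower), 56 in precursors (0.109% and 0.132%), 28 in endothelium (0.911% and 0.604%) and 14 in microglia (3.12% and 0.972%). Both directions together, 0.797% of all genes passed in GABAergic neurons, 2.46% in neural progenitors, 6.1% in mural cells, 0.287% in astrocytes, 0.241% in precursors, 1.51% in endothelium and 4.09% in microglia.

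Dcc was the one member past the fold upward, in neural progenitors, with 23.7 CPM in Mut (64 UMIs) and 9.58 CPM in WT (26 UMIs), a ratio of 2.47 (1.54 to 4.06). Female barcodes gave a log2 ratio of 0.68 and male barcodes one of 1.37. Summed neuronal markers in these barcodes were 407 CPM in Mut and 319 CPM in WT, and their part in the difference was not tested. Nrp2 in GABAergic neurons had 7.01 CPM in Mut and 13.1 CPM in WT, a ratio of 0.533 (0.350 to 0.798). Unc5d in the same cells had 1.75 CPM in Mut, on 9 UMIs, and 6.01 CPM in WT, on 38 UMIs, a ratio of 0.291 (0.124 to 0.613). In female barcodes the log2 ratio was -0.78 for Nrp2 and -0.32 for Unc5d, the second on 5 (Mut) and 8 (WT) UMIs with an interval of the ratio from 0.144 to 1.94. In male barcodes it was -0.88 for Nrp2 and -1.11 for Unc5d. Within the Sp8 type, Nrp2 had 12.7 CPM in Mut and 19.5 CPM in WT, and Unc5d 0.747 (Mut) and 4.39 (WT) CPM. Within the striatal type, Nrp2 had 13.7 CPM in Mut and 5.24 CPM in WT, and Unc5d had 0 CPM in Mut, which allows up to 8.21 CPM, and 15.7 CPM in WT. The striatal type made up 72 of 1012 GABAergic barcodes in Mut and 146 of 1464 in WT. Plxna1 in mural cells had 8.05 CPM in Mut, on 10 UMIs, and 18.4 CPM in WT, on 21 UMIs, a ratio of 0.436 (0.183 to 0.968). The count of pairs past the fold was 1 with a minimum of 100 UMIs per gene, 2 with at least 2000 UMIs per barcode and 0 with a pseudocount of 20 CPM. It was 8 with free RNA subtracted, 11 with barcodes thinned to 1000 UMIs, 11 with a pseudocount of 1 CPM and 16 in male barcodes alone.

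In oligodendrocyte precursors small differences leaned one way. The members' median log2 ratio was 0.14, where the median of all genes was 0.04. With a pseudocount of 20 CPM the members' median was 0.065. The interval of the ratio lay above 1 for 14 of the 56, where it did for 13.6% of all genes, and below 1 for 0, where it did for 6.07%. Sema3d had 68.2 CPM in Mut and 53.1 CPM in WT, a ratio of 1.28 (1.15 to 1.44), and Robo1 37.5 (Mut) and 28.4 (WT) CPM, a ratio of 1.32 (1.13 to 1.53). Slit2, Robo1's ligand, had a ratio of 1.33 (1.10 to 1.59). Precursor barcodes had a median of 5940.5 UMIs in Mut and 5556 in WT, and the part of depth in these ratios was not tested. In astrocytes the interval lay above 1 for 14 of 55 members, where it did for 22.2% of all genes, and below 1 for 9, where it did for 9.65%. Nrp2 was among the higher, at 10.2 (Mut) and 6.42 (WT) CPM, and Ntn1 among the lower, at 6.32 (Mut) and 9.38 (WT) CPM. In endothelium Plxnd1 had a ratio of 1.23 (1.14 to 1.33) and Sema7a one of 0.827 (0.713 to 0.958), and 4 of 28 intervals lay above 1 and 1 below, beside 9.19% and 5.78% of all genes. In GABAergic neurons 7 of 45 lay above 1 and 3 below, beside 15.2% and 4.85% of all genes. In neural progenitors 3 of 36 lay above and 2 below, beside 7.56% and 4.26%. In microglia 0 of 14 lay above and 1 below, beside 13.3% and 4.08%, and in mural cells 1 of 14 lay above and 1 below, beside 7.32% and 3.28%.

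**Figure D5:**
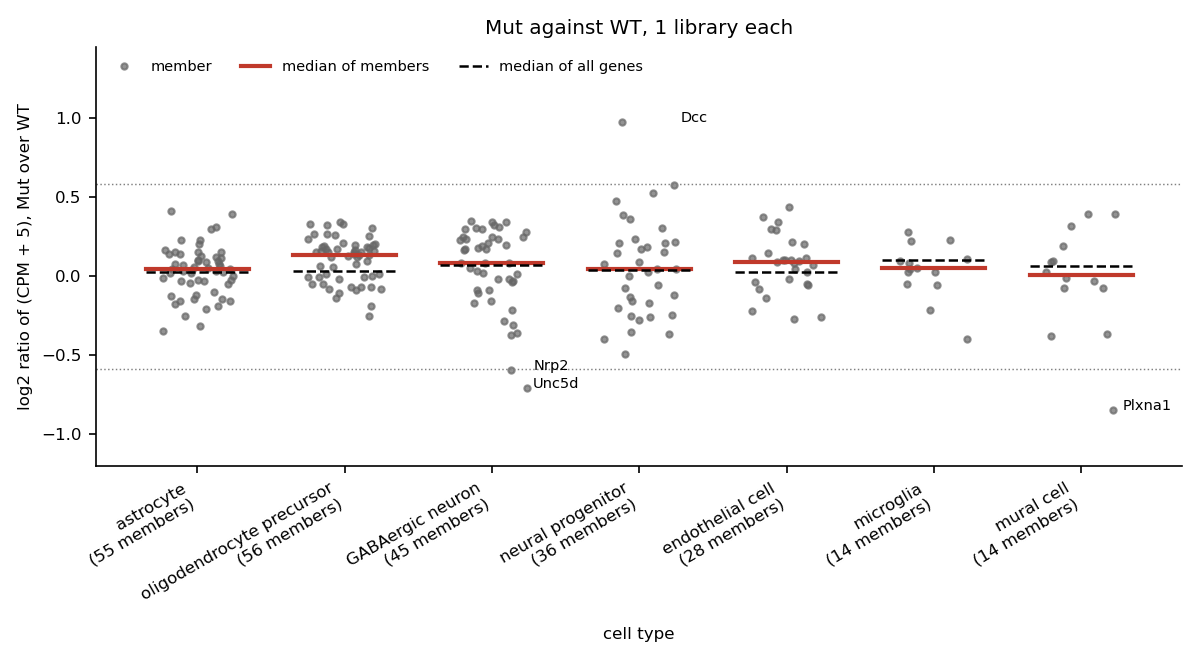
Log2 ratio of (CPM + 5), Mut over WT, of each member measured in 7 cell types, with 1 point per member, the members' median as a solid line, the median of all genes as a dashed line and dotted lines at 1.5-fold. Most points lie within 1.5-fold, the named exceptions being Dcc, Nrp2, Unc5d and Plxna1, and the members' median in precursors is 0.14 where that of all genes is 0.04.

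A few other genes of the pathway were past 1.5-fold between the libraries, where 1.86% of all gene and cell type pairs were. Of 51 listed effectors inside the cell, such as the collapsin response mediators, 50 were found, and 29 to 49 of them were measured per type. Past 1.5-fold were Crmp1 in endothelium at 6.49 CPM in Mut and 1.84 CPM in WT, Rnd2 in neural progenitors at 14.4 (Mut) and 7.74 (WT) CPM and Pak2 in mural cells at 143 (Mut) and 91.4 (WT) CPM, each higher in Mut. Of all genes 0.911% in endothelium, 1.65% in neural progenitors and 4.32% in mural cells were past the fold higher in Mut. Of 32 other cues and surface partners, 10 to 28 were measured per type. Rtn4rl1, a Nogo receptor homologue, was past the fold in mural cells at 45.9 (Mut) and 27.2 (WT) CPM. Cxcr4, the receptor of the chemokine Cxcl12, was past it in endothelium at 31.9 (Mut) and 18.9 (WT) CPM. No listed gene was past the fold downward in any of the 7 types, beside 0.132% to 1.78% of all genes. In precursors the median log2 ratio was 0.08 for the effectors and 0.05 for the surface partners.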

How the data were processed

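The authors deposited raw UMI counts per gene and barcode of 2 droplet single-cell libraries, written by Cell Ranger 4 per the file headers, with STAR and GRCm38 per the submitters' processing notes; the chemistry and annotation are not given in the sources used here. Both tables hold every barcode and totals of 97891513 UMIs in Mut and 93664707 in WT. Members and gene lists were chosen with earlier results of these data known.

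Filters of 1000 UMIs or more, 500 genes or more and no more than 20% mitochondrial UMIs left 10102 barcodes in Mut and 11024 in WT. Scrublet (scanpy 1.11.5) scores ranked doublets, and the highest-scoring 816 (Mut) and 972 (WT) were removed, at 0.8% per 1000 barcodes. A barcode's score for a type was the mean over its markers of log-normalized counts relative to the marker's 90th percentile, at most 1; the best type was taken where it scored 0.25 or more, led by 0.1 and had 3 markers detected. The score limit, the merging of committed and mature oligodendrocytes and the leaving out of erythroid markers were settled after scores had been seen. Clusters were not used. Subdivisions needed a score of 0.2.

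UMIs were summed per library and type and given as CPM, which are not divided by transcript length, with exact Poisson intervals; ratios have exact conditional binomial intervals and are on log2(CPM + 5). Cell types with at least 100 barcodes in both libraries were compared between genotypes, for genes with at least 30 UMIs. With 1 library per genotype no test was made. Precision follows the UMIs behind a level: a count of 0 allows up to 3 UMIs. Named were, per role, up to 4 members at 20 CPM with the greatest ratio of the highest type to the median, members past 1.5-fold with an interval without 1, and members with textbook vessel or oligodendrocyte roles; others were named with their values seen. The split of differentiating oligodendrocytes from precursors was added after the data were seen. Positions came from GENCODE M21 and promoters from RefSeq, both GRCm38. Alternatives changed filters, doublets, scaling (edgeR 4.0.16 TMM), marker rule, free RNA, depth, pseudocount, UMI minimum and sex. Code was tested on simulated counts with Python 3.11.15, numpy 2.4.6 and scipy 1.17.1.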

Additional observations from a re-analysis of the deposited data

Results flagged for a closer look

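Efna1, an ephrin-A, differed in direction between sexes in astrocytes. Mut over WT gave a log2 value of 0.61 in barcodes with Xist and no Y-linked UMI, with 13.7 CPM in Mut and 7.27 CPM in WT. In barcodes with Y-linked UMIs and no Xist it was -0.33, with 12.9 CPM in Mut and 17.4 CPM in WT. Unc5d in oligodendrocyte precursors did the same: 0.57 in the female barcodes, at 9.94 (Mut) and 5.04 (WT) CPM, and -0.97 in the male ones, at 5.36 (Mut) and 15.3 (WT) CPM. In both cases the intervals of the 2 ratios lay on opposite sides of 1. The differences between sexes were not tested, since each library is 1 pool with no label of animals, and 248 pairs of member and cell type were looked at.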

How the results depend on the processing

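No paired analysis was possible because each genotype has 1 library. The 56 members at the level stayed between 55 and 59 under 9 alternatives. The 4 pairs past 1.5-fold became 2 with at least 2000 UMIs per barcode, 8 with free RNA subtracted, 11 with barcodes thinned to 1000 UMIs, 11 with a pseudocount of 1 CPM, 0 with 20 CPM, 1 with at least 100 UMIs per gene and 16 in male barcodes alone. The median of pairs, 0.08, was 0.037 with TMM factors and 0.041 with a pseudocount of 20 CPM, and that of precursors, 0.14, was 0.065 with a pseudocount of 20 CPM. The 7 arterial members became 4 without doublet removal, 2 thinned and 4 with at least 100 UMIs per gene. Leaving Stmn2, also a neuronal gene, out of the arterial markers, chosen after seeing the data, left 7.

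The log2 ratio of the highest to the next type turned negative for Unc50 (-0.35, thinned), Efna4 (-0.031 without doublet removal, -0.14 thinned), Nrp1 (-0.17, free RNA subtracted), Efnb3 (-0.051 with the stricter marker rule, -0.14 thinned) and Efna5 (-0.92 with the stricter marker rule, -0.70 thinned). The members' median turned negative in microglia (-0.024 with TMM, -0.076 in female barcodes), mural cells (-0.0085 with at least 500 UMIs, -0.00055 with at most 10% mitochondrial UMIs, -0.055 with TMM) and neural progenitors (-0.088 thinned, -0.053 with at least 100 UMIs per gene, -0.0082 in female and -0.12 in male barcodes). The log2 ratio of arterial to venous barcodes of Ephb4 became -1.68 when thinned, with few UMIs left in the arterial barcodes. The causes of these changes were not tested. Levels in ependymal, excitatory, Cajal-Retzius, arterial and WT fibroblast barcodes rest on few UMIs.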
